A study of Mus musculus with 9 samples.

Results

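The transcripts described here encode the heavy chains of MHC class I molecules, their light chain B2m (beta-2-microglobulin) and the transactivator Nlrc5, followed in the brains of young and old mice. The 10 genes were taken by name from a table of read counts with 49315 gene IDs, of which 18492 had enough counts to be tested. They are the classical heavy chains H2-K1 and H2-D1, the nonclassical heavy chains H2-Q4, H2-Q6, H2-Q7, H2-T22, H2-T23 and H2-M3, and B2m and Nlrc5, and all 10 passed the filter on low counts. The libraries came from wild-type (WT) male mice of the C57BL/6J strain, 5 of them young (3 months) and 4 old (33 months), with no treatment named in the labels. RNA of the whole brain tissue was selected for polyA, so every cell type of the brain, its vessels and its borders contributed, and each library held 14229259 to 21150439 counts. Old replicate 2 is not analysed here.

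MHC class I molecules display peptides from the inside of a cell on its surface, where CD8 T cells and natural killer cells read them. A heavy chain binds the peptide and needs B2m to be stable, and the peptides are made by the proteasome and carried into the endoplasmic reticulum by the transporter Tap1 and Tap2. Nlrc5 binds no DNA by itself and joins the factors RFX, CREB or ATF1 and NF-Y on the X and Y boxes of class I promoters, while NF-kappaB and interferon regulatory factors act on an enhancer and an interferon response element further upstream. In healthy brain, class I expression is low in neurons and higher in microglia and endothelium.

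All heavy chain genes lie in the MHC on chromosome 17 (GRCm38, GENCODE annotation). H2-K1 spans 33996017 to 34000347 at one end and H2-M3 spans 37270220 to 37274484 at the other. Between them are H2-D1 (35262730 to 35267499), H2-Q4 (35379617 to 35385290), H2-Q6 (35424850 to 35430055), H2-Q7 (35439155 to 35443773), H2-T23 (36029773 to 36032855) and H2-T22 (36037128 to 36042747). B2m is on chromosome 2 (122147686 to 122153083) and Nlrc5 on chromosome 8 (94434356 to 94527272).

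Promoter stretches are shown for 5 of the genes, because the members differed in how far they rose with age and in which letter matches to class I promoter elements they hold. Each is a run of 150 bases from RefSeq (GRCm38.p6), 5′ to 3′ on the strand of the gene, that ends 31 bases before the annotated start. Capitals mark the motif matches, in the order kappaB, interferon response element, X2 and Y from upstream to downstream in H2-K1 and H2-Q7, of which the Y match of H2-K1 lies past the end of its run. In H2-Q4 the X2 match sits between a pair of Y matches, B2m shows X2 and then Y, and H2-T22 shows a pair of Y matches, with its X2 match past the end. H2-K1, H2-Q4 and H2-Q7 hold matches to the kappaB and interferon element letters given below, whereas H2-T22 and B2m hold no match to them. Other spellings of these elements were not searched for, so the absence of the elements from a gene is not shown.
H2-K1, chr17:34000378-34000527, minus strand: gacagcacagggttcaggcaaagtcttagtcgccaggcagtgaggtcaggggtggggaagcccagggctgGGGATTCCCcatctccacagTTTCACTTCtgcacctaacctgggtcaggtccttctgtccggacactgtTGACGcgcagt
H2-Q4, chr17:35379437-35379586, plus strand: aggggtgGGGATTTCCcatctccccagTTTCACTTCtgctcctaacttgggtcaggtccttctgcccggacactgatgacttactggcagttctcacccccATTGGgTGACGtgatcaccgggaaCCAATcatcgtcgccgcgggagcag
H2-Q7, chr17:35438975-35439124, plus strand: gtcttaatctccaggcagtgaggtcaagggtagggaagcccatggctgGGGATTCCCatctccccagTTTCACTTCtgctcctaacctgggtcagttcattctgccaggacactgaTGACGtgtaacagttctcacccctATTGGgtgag
H2-T22, chr17:36042773-36042922, minus strand: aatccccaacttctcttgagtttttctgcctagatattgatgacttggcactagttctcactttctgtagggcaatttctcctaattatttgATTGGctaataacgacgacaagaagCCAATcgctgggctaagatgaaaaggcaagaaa
B2m, chr2:122147507-122147656, plus strand: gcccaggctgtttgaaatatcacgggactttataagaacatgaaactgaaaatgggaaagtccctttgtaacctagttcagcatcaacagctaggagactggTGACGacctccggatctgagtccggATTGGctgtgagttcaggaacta

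RefSeq promoters were found for 9 of the 10 members, all but Nlrc5. The letters searched, on both strands in the 250 bases before the start, were GGGATTNCC for kappaB, TTTCNNTTC for an interferon-stimulated response element (ISRE-like), TGACG for the X2 box and ATTGG for the Y box. These letters were chosen after the member sequences had been seen, so their presence in the members is no finding. Among all 32851 promoters, kappaB was in 0.822%, ISRE-like in 6.31%, X2 in 17.8% and Y in 33.8%. All 4 motifs together were in 5 promoter entries, which belong to H2-K1 (2 entries), H2-D1, H2-Q4 and H2-Q7. No matches of different motifs overlapped. A match is of letters alone and need not be the box of that name. The X2 letters start at -41 bases in H2-K1, before Y at -16, and at -78 in B2m, before Y at -53. In H2-Q4 they start at -73, after a Y match at -79, and in H2-T22 at -22, after its Y matches. H2-Q6 lacked only the X2 letters, H2-M3 lacked only kappaB, H2-T22 and B2m held X2 and Y, and H2-T23 held Y alone. The RefSeq start lay 364 bases from the GENCODE start in H2-D1 and 154 bases from it in H2-T23. The matches found in these genes depend on the start used. The 5 members with kappaB and ISRE-like (H2-K1, H2-D1, H2-Q4, H2-Q6 and H2-Q7) had old to young folds of 1.84 to 5.17 in the comparison below. The other 4 had folds of 1.27 to 1.90, so that the ranges overlap at H2-D1 and B2m. This grouping depends on the letters searched, since other spellings of the elements were not searched for. No contrast in fold is read from it. The motifs were chosen with results of these data known, and their part in the change with age was not tested.

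**Figure D1:**
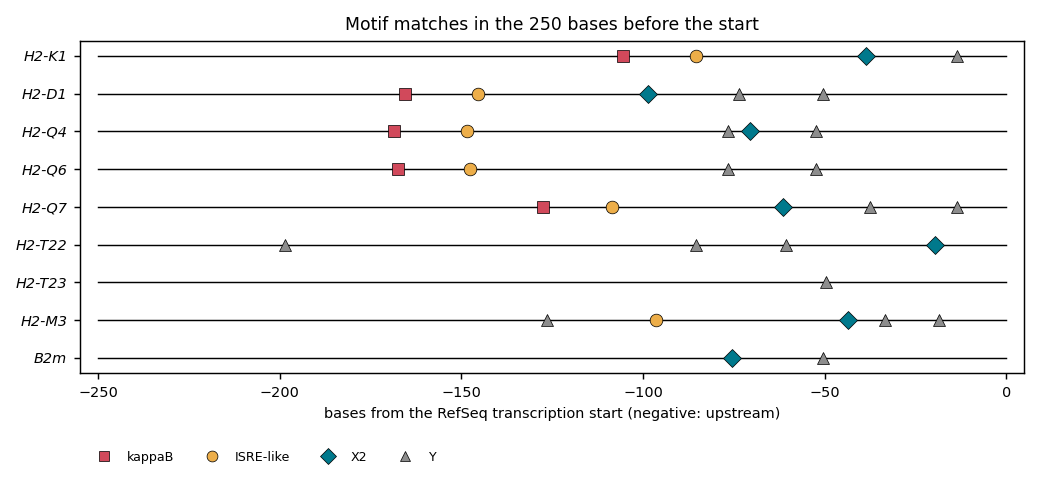
Motif matches in the 250 bases before the RefSeq start of 9 members, with distance from the start in bases on the x axis and a gene per row. The squares (kappaB) and the circles next to them (ISRE-like) sit together in 5 genes from H2-K1 to H2-Q7, H2-M3 has a circle without a square, and H2-T22, H2-T23 and B2m have neither.

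One library stood apart before any comparison. Young replicate 4 had the highest total of all 9 and summed to 2249 CPM (read counts relative to library size, with TMM scaling) over 12 genes of activated microglia. The remaining young mice summed to 1624 to 1765 CPM there, and old mice to 2384 to 2618 CPM. Most of this sum came from Apoe, at 1740 CPM in young replicate 4. Over 6 astrocyte genes the remaining young mice summed to 3338 to 3538 CPM and old mice to 3668 to 3934 CPM. Young replicate 4 was above both there, at 3979 CPM. Test results that leaving out this mouse changes are therefore given with and without it.

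To ask how aging affects class I transcripts, old and young brains were compared gene by gene. Of the 10 members, 8 rose with age past an adjusted p of 0.05 and a log2 fold change of 0.58 (edgeR quasi-likelihood test, Benjamini-Hochberg adjustment over 18492 genes), where 2.28% of all genes tested did so. The Q-region heavy chains H2-Q7, H2-Q6 and H2-Q4 and the transactivator Nlrc5 had the largest fold changes of the members, the classical chains, B2m and H2-T23 followed, and H2-T22 and H2-M3 stayed under the fold threshold. At an adjusted p of 0.05 alone, 9 members were higher in old brain, all but H2-M3, against 6.2% of all genes. Every old mouse was above every young mouse in log2 CPM for 9 members, all but H2-T22, against 6.5% of all genes. For H2-M3 this depended on the scale, since its ages overlapped in raw counts and in deposited TPM (lowest old 4.52, highest young 5.44). The members' log2 fold changes ran from 0.34 to 2.37 with a median of 1.08, while the median of all genes tested was 0. In tissue RNA, more cells of a type and more RNA per cell cannot be told apart, and this holds for each value that follows. Without young replicate 4, the same number of members (8) passed.

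**Figure D2:**
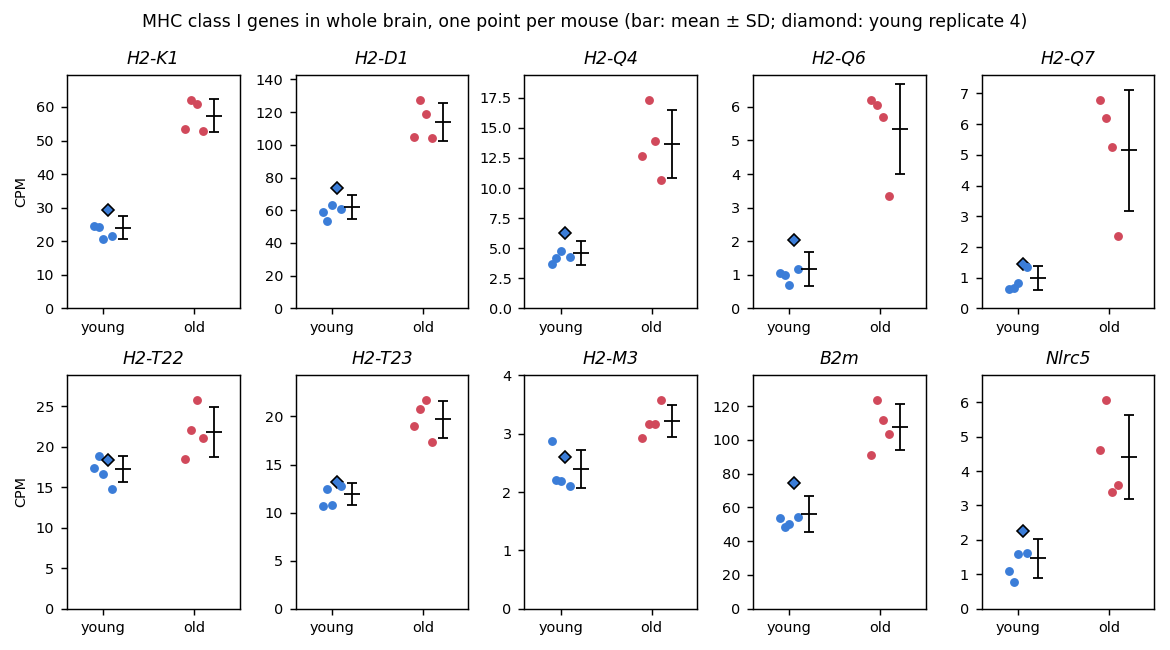
CPM of the 10 genes on the y axes, each starting at 0, with a point per mouse for 5 young (blue) and 4 old (red) brains, the mean and SD beside them, and young replicate 4 as a diamond. All red points lie above all blue points except in H2-T22, and the diamond is the highest blue point in 8 of the 10 panels.

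B2m, the light chain shared by every class I molecule, was at 53.6, 48.6, 50.1, 74.5 and 54.3 CPM in young replicates 1 to 5 and at 91.3, 124, 112 and 103 CPM in old replicates 1, 3, 4 and 5. The ages did not overlap, and young replicate 4 was alone between the other young mice and the old. In deposited TPM the ages did not overlap either, but this mouse (189.3) was under young replicate 3 (198.6). Nor was it the highest young mouse in TPM of H2-K1, H2-D1, H2-Q4, H2-T23 or Nlrc5. The means were 56.2 ± 10.5 CPM (SD, n = 5) and 107.5 ± 13.7 CPM (SD, n = 4), a log2 fold change of 0.93 (95% confidence interval 0.69 to 1.17, edgeR, adjusted p = 0.00021). Without young replicate 4 it was 1.05 (edgeR, adjusted p = 2.6e-06). Placed between the remaining 4 young mice (mean set to 0) and the old group (mean set to 1), this mouse lay at 0.41 for B2m and at 0.135 (H2-Q7) to 0.319 (Nlrc5) for the remaining 9 genes.

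H2-K1 and H2-D1 encode the classical heavy chains, which present peptides to CD8 T cells. H2-K1 was at 24.5, 24.2, 20.8, 29.4 and 21.6 CPM in the young and at 53.4, 62.2, 60.9 and 53.0 CPM in the old mice. The lowest old value was 1.80 times the highest young value, the widest such gap of the 10 genes in CPM. In deposited TPM it was 1.797 times, under H2-Q6 (1.836) and H2-Q7 (1.803). The log2 fold change of H2-K1 was 1.24 (95% confidence interval 1.06 to 1.42, edgeR, adjusted p = 5.3e-06), the rank 3 p-value among all genes tested. H2-D1 was at 58.6, 53.4, 63.5, 73.3 and 60.9 CPM in the young and at 105, 128, 119 and 104 CPM in the old mice. Its old and young values were also apart, with a log2 fold change of 0.88 (95% confidence interval 0.70 to 1.05, edgeR, adjusted p = 3.6e-05). H2-D1 was thus the more abundant classical chain at both ages and H2-K1 the one with the larger change.

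Because a ratio of 2 genes in the same library does not depend on how libraries are scaled, the classical chains were compared directly. The log2 ratio of H2-K1 to H2-D1 counts was -1.36 ± 0.19 (SD, n = 5) in young and -0.99 ± 0.03 (SD, n = 4) in old brain, a difference of 0.37 (exact permutation test, two-sided p = 0.0159, where 126 splits of the mice allow 0.00794 at the smallest). In linear terms there were 0.328 to 0.454 H2-K1 counts per H2-D1 count in the young and 0.487 to 0.512 in the old mice, so the ages did not overlap.

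H2-Q4, H2-Q6 and H2-Q7 are nonclassical heavy chains of the Q region, and H2-Q6 and H2-Q7 encode the lipid-anchored antigen Qa-2. H2-Q4 was at 3.66, 4.204, 4.81, 6.23 and 4.26 CPM in the young and at 12.6, 17.35, 13.95 and 10.7 CPM in the old mice, with a log2 fold change of 1.55 (95% confidence interval 1.21 to 1.88, edgeR, adjusted p = 7.2e-05). H2-Q6 was at 1.05, 0.996, 0.687, 2.03 and 1.17 CPM in the young and at 6.22, 6.07, 5.69 and 3.35 CPM in the old mice. Old replicate 5 was well under the other old mice in H2-Q6 and again in H2-Q7, yet above every young mouse in both. H2-Q7 was at 0.627, 0.664, 0.825, 1.45 and 1.36 CPM in the young and at 6.80, 6.21, 5.25 and 2.35 CPM in the old mice. The log2 fold change was 2.13 for H2-Q6 (95% confidence interval 1.58 to 2.67, edgeR, adjusted p = 0.00021). For H2-Q7 it was 2.37 (95% confidence interval 1.70 to 3.04, edgeR, adjusted p = 0.00043), the largest of the 10 genes. On the log2(TPM + 1) scale, whose added 1 weighs on low genes, the log2 fold change was 1.5 for H2-Q6 and 1.21 for H2-Q7, and with 0.1 added it was 1.98 and 2.02.

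The depth behind the Q genes was low in young brain, with 10 to 42 counts per mouse for H2-Q6 and 12 to 30 for H2-Q7, against 57 to 117 and 40 to 128 in old brain. These paralogs share sequence, and reads that align to more than 1 place were left out by the authors. Of the windows of 150 bases in the longest transcript of each gene, 5.99% in H2-Q6 also occurred in H2-Q7, and 6.87% in H2-Q7 occurred in H2-Q10, H2-Q6 or H2-Q5. For H2-Q4, 10.46% of windows lay in the antisense gene Gm11131, which had 1 to 7 counts per library, and H2-D1 shared 1.79% with H2-Q1. None were shared for H2-K1, H2-M3, B2m or Nlrc5.

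H2-T23 encodes Qa-1, the ligand of the receptor CD94/NKG2 on natural killer cells and some T cells. It was at 10.7, 12.45, 10.8, 13.2 and 12.7 CPM in the young and at 19.0, 20.7, 21.7 and 17.3 CPM in the old mice, with no overlap and a log2 fold change of 0.71 (95% confidence interval 0.53 to 0.90, edgeR, adjusted p = 0.00022). On the deposited TPM scale, where the median of all genes fell by 0.142, its log2 fold change was 0.51 and it no longer passed (limma on log2(TPM + 1), adjusted p = 0.078). H2-T22, whose product binds no peptide and is seen by some gamma delta T cells, was at 17.35, 18.9, 16.6, 18.4 and 14.8 CPM in the young. In the old mice it was at 18.4, 22.1, 25.8 and 21.0 CPM. Old replicate 1 lay within the young range, and the log2 fold change of 0.34 (95% confidence interval 0.14 to 0.54, edgeR, adjusted p = 0.032) stayed under the fold threshold. Leaving out single mice put its adjusted p over 0.05 in 6 of 9 cases, namely young replicates 1, 3 and 5 (0.06, 0.068 and 0.072) and old replicates 3, 4 and 5 (0.069, 0.098 and 0.053, edgeR). H2-T22 shares 29.4% of its exon bases with the antisense gene A930015D03Rik, which had 21 to 40 counts per library, and reads of the pair cannot be told apart without strand.

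H2-M3, which presents N-formylated peptides of bacterial and mitochondrial origin, was at 2.87, 2.21, 2.20, 2.61 and 2.10 CPM in the young and at 2.92, 3.17, 3.17 and 3.58 CPM in the old mice. The lowest old value was only 1.02 times the highest young one, and the log2 fold change of 0.41 (95% confidence interval 0.10 to 0.72, edgeR, adjusted p = 0.086) did not pass. Its 32 to 61 counts per mouse left an interval that reaches from near no change to past the fold threshold.

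Nlrc5, the transactivator of class I genes, was at 1.10, 0.7745, 1.58, 2.27 and 1.61 CPM in the young and at 4.62, 6.07, 3.39 and 3.58 CPM in the old mice. Every old mouse was above every young mouse, and the log2 fold change was 1.57 (95% confidence interval 1.02 to 2.12, edgeR, adjusted p = 0.002). Without young replicate 4 it was 1.81 (edgeR, adjusted p = 0.00048). It was 0.60 on the log2(TPM + 1) scale, close to the fold threshold, and 1.28 on log2(TPM + 0.1). The gene rested on 14 to 47 counts in a young and 61 to 87 in an old mouse, spread over 8493 exon bases.

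**Figure D3:**
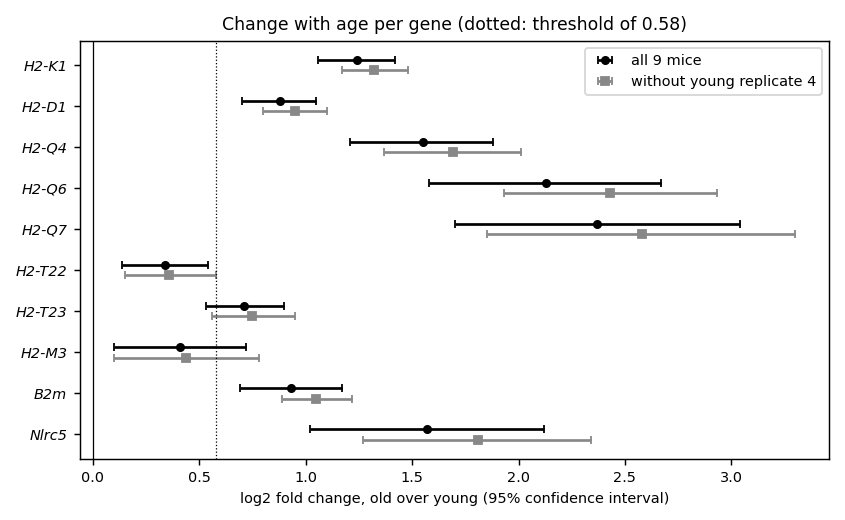
Log2 fold change of old over young brain with its 95% confidence interval for each gene, over all 9 mice (circles) and without young replicate 4 (squares), with the threshold of 0.58 dotted. H2-Q7, H2-Q6, Nlrc5 and H2-Q4 lie farthest to the right, H2-T22 and H2-M3 lie left of the dotted line, and the squares are to the right of the circles in every gene.

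The heavy chains did not all keep step with B2m. Relative to B2m counts in the same library, H2-K1, H2-Q4, H2-Q6 and H2-Q7 were higher in old brain, and H2-T22 and H2-M3 were lower. The log2 ratio differed between old and young by 1.39 for H2-Q7 (exact permutation test, two-sided p = 0.0159), by 1.24 for H2-Q6 (p = 0.00794, exact), by 0.61 for H2-Q4 (p = 0.00794, exact) and by 0.31 for H2-K1 (p = 0.0159, exact). The difference was -0.61 for H2-T22 and -0.52 for H2-M3 (exact permutation tests, p = 0.0159 each). All 6 had an adjusted p of 0.0238 over the 9 ratios compared. The ages did not overlap in these ratios except in H2-Q7, where old replicate 5 (0.0230 H2-Q7 counts per B2m count) was under the highest young mouse (0.0256). H2-D1 followed B2m, at 0.984 to 1.27 counts per B2m count in the young and 1.01 to 1.15 in the old mice (difference -0.06, exact permutation p = 0.437). H2-T23 (difference -0.23, exact permutation p = 0.111) and Nlrc5 (0.68, exact permutation p = 0.0476, adjusted p = 0.0612) did not pass after adjustment. With a mouse left out, the smallest p that the design allows is larger, and the 6 ratios kept their sign at adjusted p from 0.0514 to 0.0857 for 7 of the 9 mice (young replicates 1 to 4 and old replicates 1, 3 and 5), at 0.0429 without young replicate 5 and at 0.0459 without old replicate 4. Without old replicate 4 Nlrc5 reached 0.0459 at a difference of 0.81.

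**Figure D4:**
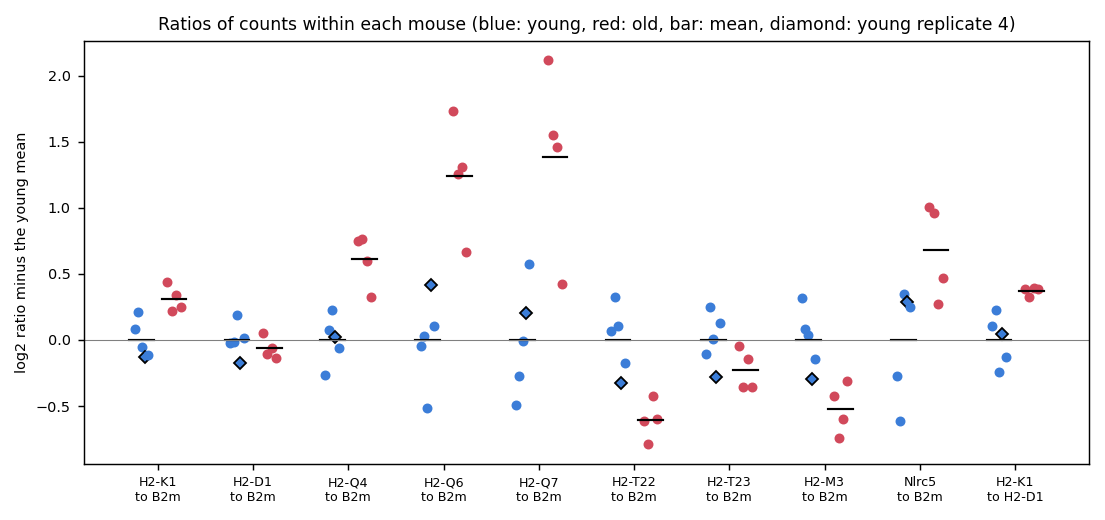
Log2 ratios of counts within each library, minus the young mean of the same ratio, for 9 genes relative to B2m and for H2-K1 relative to H2-D1, with 5 young mice in blue, 4 old in red and bars at the means. Old means lie 1.24 and 1.39 above the young for H2-Q6 and H2-Q7, near 0 for H2-D1 (-0.06), and under 0 for H2-T22 (-0.61) and H2-M3 (-0.52).

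Levels of different genes were compared per length, as CPM per kilobase of annotated exon. In young brain B2m stood at 65.4 ± 12.2 CPM per kilobase (SD, n = 5), followed by H2-D1 at 24.03 ± 2.85, H2-K1 at 8.21 ± 1.14, H2-T22 at 5.04 ± 0.465, H2-T23 at 4.14 ± 0.397, H2-Q4 at 1.79 ± 0.378, H2-M3 at 1.67 ± 0.229, H2-Q6 at 0.569 ± 0.242, H2-Q7 at 0.231 ± 0.0917 and Nlrc5 at 0.173 ± 0.0670. Neighbours in this order overlapped between mice for H2-T22 and H2-T23, for H2-Q4 and H2-M3, and among the last 3. In old brain B2m (125 ± 15.9 CPM per kilobase, SD, n = 4), H2-D1 (44.2 ± 4.41) and H2-K1 (19.5 ± 1.66) kept their places, and H2-Q4 (5.26 ± 1.08) overlapped H2-T22 (6.39 ± 0.892). H2-Q6 (2.56 ± 0.643) and H2-M3 (2.23 ± 0.190) overlapped as well, whereas in young brain every H2-M3 value had been above every H2-Q6 value.

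Summed over the 8 heavy chains, the level was 45.7 ± 4.64 CPM per kilobase in young (SD, n = 5) and 88.2 ± 8.73 in old brain (SD, n = 4). B2m relative to this sum was 1.42 ± 0.118 in young and 1.42 ± 0.099 in old mice, with young values from 1.32 to 1.61 and old values from 1.29 to 1.51. Within the sum, H2-D1 made up 52.6% ± 2.64 in young and 50.1% ± 0.831 in old brain. The part of H2-K1 was 16.0% to 19.4% in the young and 21.7% to 22.7% in the old mice. H2-Q4, H2-Q6 and H2-Q7 together made up 4.68% to 6.89% and 7.90% to 11.5%. The part of H2-T22 went from 9.94% to 12.97% in the young to 6.56% to 8.07% in the old mice, and that of H2-M3 from 3.34% to 4.55% to 2.26% to 3.14%. The young and old ranges of these 4 shares did not overlap. All 10 genes together took 0.0165% to 0.0219% of the counts of a young and 0.0322% to 0.0392% of those of an old library.

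Of 13 genes of peptide processing and loading, 7 had an adjusted p under 0.05 and were higher in old brain (edgeR) and none was lower, while 3 passed the fold threshold as well. The median log2 fold change of the 13 was 0.25. The 3 were Psmb8, a catalytic subunit of the immunoproteasome (1.31, adjusted p = 0.00069, edgeR), and both subunits of the peptide transporter, Tap1 (0.96, adjusted p = 0.0056, edgeR) and Tap2 (0.76, adjusted p = 2.8e-05, edgeR). Tap2 was at 10.1 to 12.1 CPM in young and 17.95 to 19.5 CPM in old mice. Without young replicate 4, 6 of the 13 were higher at an adjusted p of 0.05 (edgeR). The chaperones of the endoplasmic reticulum that class I shares with other glycoproteins made up most of the list by level. The highest of them was Canx, calnexin, whose level was 387 ± 22.2 CPM for young (SD, n = 5) and 362 ± 20.8 CPM for old mice (SD, n = 4, log2 fold change -0.10, edgeR, adjusted p = 0.23).

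Of 14 genes for factors that act on class I promoters (among them the RFX and NF-Y subunits, Creb1, Atf1 and interferon regulatory factors), 1 passed an adjusted p of 0.05 and none passed the fold threshold. Without young replicate 4, 2 passed that adjusted p. The median log2 fold change was 0.04. Irf2, an interferon regulatory factor, had a log2 fold change of 0.20 (edgeR, adjusted p = 0.062). Creb1, the highest in level, was at 64.8 ± 2.39 CPM for young (SD, n = 5) and 64.1 ± 2.41 CPM for old mice (SD, n = 4). Among these regulators and Nlrc5, Nlrc5 had the largest fold change.

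Other class I genes and relatives were mixed, with 13 of 18 in the table tested, 4 higher at an adjusted p of 0.05, 3 of these past the fold threshold, none lower, and a median log2 fold change of 0.03. H2-Q5, a further Q-region gene, went from 0.124 to 0.531 CPM in the young to 0.939 to 2.89 CPM in the old mice (log2 fold change 2.27, edgeR, adjusted p = 0.0035). H2-T10, a close relative of H2-T22, had a log2 fold change of 1.10 (edgeR, adjusted p = 0.0077). The highest in level was Fcgrt, the heavy chain of the neonatal Fc receptor, which pairs with B2m as well, at 14.7 ± 1.09 CPM for young (SD, n = 5) and 14.4 ± 1.59 CPM for old mice (SD, n = 4). Without young replicate 4, 2 were called higher and 1 lower. The median of this list was 0.17 without old replicate 1 and -0.05 without old replicate 5.

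The neighbours of the class I genes in the MHC, an interval chosen after the values were seen, were read in the same fit. Between H2-K1 and H2-M3, 104 other genes were tested, with a median log2 fold change of -0.01. Of these, 10 were called higher with age and 1 lower, where 2.28% of all genes tested were called higher. Those called were H2-DMb1, Tap1, Psmb8, Tap2, H2-Ab1, H2-Aa, H2-Eb1, C4b, C2, Vwa7 and Ltb. Of 18 class I genes tested in the same interval, 8 were called higher and none lower, with a median of 0.67. These 8 were the members H2-K1, H2-D1, H2-Q4, H2-Q6, H2-Q7 and H2-T23, and beside them H2-Q5 and H2-T10.

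Receptors that read class I were scarce in these brains. Of 10 genes looked for, 9 were in the table and 2 were tested, of which Pirb, an inhibitory receptor of myeloid cells, was higher in old brain (log2 fold change 1.06, edgeR, adjusted p = 0.047). The other tested one, Cd160, had a log2 fold change of 0.18 (edgeR, adjusted p = 0.71). Cd8a, the coreceptor for class I on T cells, did not pass the filter, at 0 to 0.157 CPM in young and 0.274 to 0.939 CPM in old mice.

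Class I genes are induced by interferons, so 15 interferon response genes were read beside them. Of these, 14 were higher in old brain at an adjusted p of 0.05 and 12 passed the fold threshold, with a median log2 fold change of 1.08. The lowest p-values were those of Ifi27 (0.81, adjusted p = 5.6e-06, edgeR), and Bst2, which tethers virus particles (1.58, adjusted p = 3.9e-05, edgeR), and Stat2 was the highest in level (0.18, adjusted p = 0.087, edgeR). Their summed level was 124 to 140 CPM in young and 210.5 to 268 CPM in old mice. Old replicate 3, the highest of the old mice at 268 CPM, was also the highest of all mice in CPM of H2-K1, H2-D1, H2-Q4, B2m and Nlrc5. Old replicate 1 was the highest in H2-Q6 and H2-Q7, old replicate 4 in H2-T22 and H2-T23, and old replicate 5 in H2-M3. In deposited TPM, old replicate 3 was the lowest old mouse in H2-K1 and under old replicates 1 and 4 in H2-D1. It stayed the highest there in H2-Q4, B2m and Nlrc5. In the interferon sum, young replicate 4 was at 139 CPM, inside the range of the other young mice (124 to 140 CPM). The part of the interferon genes in the class I levels was not tested.

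Markers of cell types that carry class I were mixed, some higher in old brain and others not. Of 12 microglia genes, 4 were higher at an adjusted p of 0.05 and 1 past the fold threshold, with sums of 261 to 361 CPM in young and 344 to 402 CPM in old mice, and none of the markers was at 0 in any library. Tmem119 (log2 fold change 0.53, edgeR, adjusted p = 0.00093) and Selplg (0.45, edgeR, adjusted p = 0.0011) had the lowest p-values. Of 12 genes of activated microglia, 5 were higher at an adjusted p of 0.05, and 2 of these passed the fold threshold, Gpnmb (2.52, edgeR, adjusted p = 0.00042) and Trem2 (0.89, edgeR, adjusted p = 0.031). Apoe, the highest in level, stayed under it (0.47, edgeR, adjusted p = 0.0012). Without young replicate 4, 10 of the 12 had an adjusted p under 0.05 and 7 passed the fold threshold, and the median log2 fold change was 0.95 instead of 0.64. For the microglia list the count was then 6 in place of 4, with 2 in place of 1 past the fold threshold. The median was 0.32 in place of 0.20, and the remaining young mice summed to 261 to 291 CPM, apart from the old mice. Of 11 endothelial genes, 6 were higher and 1 was lower at an adjusted p of 0.05, and 2 passed the fold threshold, Ly6a (1.27, edgeR, adjusted p = 5.6e-05) and Ly6c1 (0.94, edgeR, adjusted p = 5e-05), while Flt1, the highest in level, had a log2 fold change of 0.25 (edgeR, adjusted p = 0.028). The lower gene was Itm2a (-0.43, edgeR, adjusted p = 0.023), and the median log2 fold change of the 11 was 0.23. Without young replicate 4, 6 endothelial genes were higher and 2 were lower at an adjusted p of 0.05. The endothelial sum was 337 to 357 CPM in young and 382 to 427 CPM in old mice, and young replicate 4 was the lowest of all at 337 CPM. The part of these cells in the class I results was not tested.

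**Figure D5:**
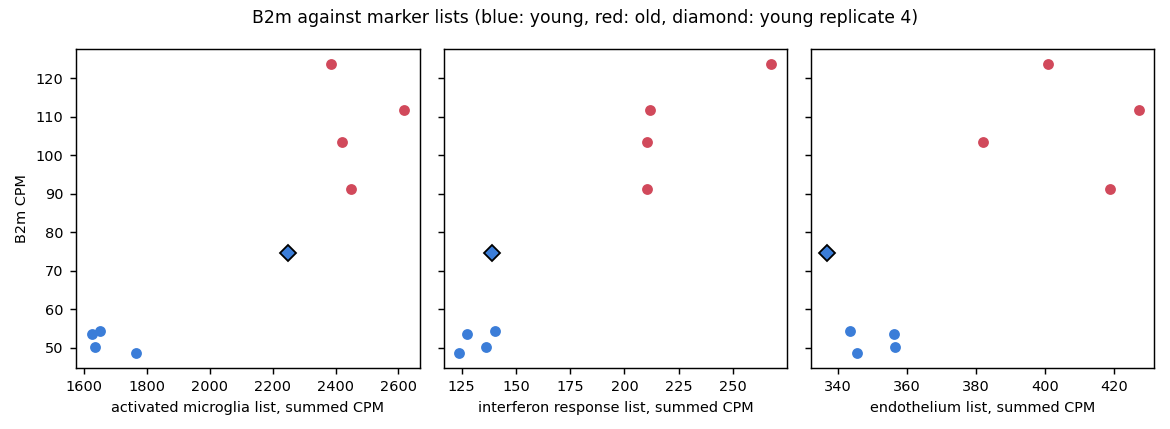
B2m in CPM on the y axis against the summed CPM of the activated microglia, interferon response and endothelium lists on the x axes, a point per mouse for 5 young (blue, with young replicate 4 as a diamond) and 4 old (red) brains. The axes do not start at 0. Young replicate 4 is apart from the other young mice along the microglia axis (2249 CPM) and among them along the interferon axis (139 CPM). Most of the sum on the microglia axis is Apoe.

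Lymphocytes and blood were looked for in the same way. Of 15 T and NK cell genes, 3 had enough counts to be tested and none passed an adjusted p of 0.05, and at an unadjusted p of 0.05 there was 1, Trbc2, at a log2 fold change of -0.31 (edgeR, unadjusted p = 0.037). Cd3d, Cd3g, Cd8a, Cd8b1, Trbc1, Nkg7, Gzma, Gzmb, Ccl5 and Klrd1 were at 0 in at least 1 library. The sums, most of which came from Cd4 and Trbc2, were 10.6 to 13.8 CPM in young and 11.4 to 13.1 CPM in old mice. Among the genes with too few counts to be tested, 5 were higher in every old than in every young mouse, Cd3d (0 to 0.1045 CPM in young, 0.109 to 0.294 in old mice), Cd3g (0 to 0.0483 and 0.109 to 0.213), Cd8b1 (0 to 0.1045 and 0.106 to 0.423), Ccl5 (0 to 0.290 and 0.353 to 0.657) and Cd8a, given above. All of these levels are near 0, and the gap between the ages was narrow for Cd3d and Cd8b1. The other untested genes of the list overlapped between the ages. How many of all untested genes separate in this way was not worked out, so no change with age is read from these 5. Of 8 B and plasma cell genes, 3 were tested and 1 rose, with sums of 16.9 to 22.6 CPM in young and 14.8 to 39.1 CPM in old mice, and Cd79b and Ms4a1 were among those at 0 in at least 1 library. Of 7 genes of border macrophages and monocytes, 5 were tested and 2 rose, and the sums were 7.30 to 8.66 and 10.2 to 17.9 CPM, with Ms4a7 at 0 in at least 1 library, and without young replicate 4, 4 were tested and 1 rose. All 5 red blood cell genes rose, from sums of 86.1 to 116 CPM in the young to 128 to 409 CPM in the old mice. The part of these cells in the class I results was not tested.

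The brain's main cell types were present in every library. No marker of neurons, astrocytes, oligodendrocytes or choroid plexus was at 0 in any of the 9. The median log2 fold change was -0.09 for 6 neuronal genes (none higher and 2 lower at an adjusted p of 0.05), 0.03 for 6 astrocyte genes (1 higher), -0.05 for 6 oligodendrocyte genes (2 higher and 1 lower) and -0.19 for 5 choroid plexus genes (1 lower). Without young replicate 4, 1 neuronal gene was lower at that adjusted p.

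Finally, the genes whose log2 CPM followed B2m most closely were listed over the 9 libraries, among 14503 genes with a mean log2 CPM of at least 1. Outside the members these were Lgals3bp (Pearson r 0.986), a secreted glycoprotein, Xdh (0.985), xanthine dehydrogenase, Ahnak (0.983), a large scaffold protein, Abcc9 (0.981), a subunit of potassium channels in vessel walls, and Pcdhb12 (0.977), a protocadherin with close copies. Since the libraries share an age difference, the mean of each age was also removed, which left r at 0.945, 0.941, 0.887, 0.911 and 0.863 in the same order. Of the members, H2-D1 ranked 4 among all genes in its likeness to B2m (r 0.982, and 0.88 with the ages removed), H2-K1 ranked 10 (0.971 and 0.824), and H2-T22 ranked 759 (0.797 and 0.404). Within ages, the pairs of members ranged from -0.468 for H2-Q7 and H2-M3 to 0.88 for H2-D1 with B2m and with H2-Q4. These are descriptions over 9 libraries that share their scaling. They include young replicate 4, whose B2m lay apart from the other young mice, and were not worked out without it.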

How the data were processed

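Whole-brain polyA RNA of 5 young and 4 old mice was sequenced, and the mice were grouped by the age in the labels. According to the study's methods, the authors trimmed reads, used STAR to align them to Ensembl GRCm38, and had featureCounts count the uniquely mapped reads over exons. Raw counts per gene were deposited as whole numbers. A further deposited table holds a signal, made when the authors divided the counts of a library by its size factor, for 17994 genes. The deposited TPM values were made by the authors with gene lengths not given in the sources used here. Whether counting used strand for these libraries is not given either. The counts per library, 14229259 to 21150439, gave a median standard error of 0.0838 on the log2 fold change.

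The members, gene lists and motifs were chosen with earlier results of these data known. Named genes were the 10 members, the 5 other genes most like B2m, and from each described list the 2 genes with the lowest p and the one with the highest level. Gene names were matched for 48970 of 49315 IDs. Tap1, Trem2, Itm2a, Cd8a, the untested T cell genes and the called genes of the MHC interval were named after their values were seen. Single values of a few list genes are not reported here. Counts were scaled by TMM, low genes were removed by filterByExpr of edgeR (at least 10 counts, 15 in total), and old was compared with young by the quasi-likelihood test in edgeR 4.0.16 under R 4.3.3. Calls needed an adjusted p (Benjamini-Hochberg) under 0.05 with a log2 fold change beyond 0.58 in either direction. The labels give each sample a replicate number, and nothing in them ties the numbers across ages. Replicates were separate libraries, and the labels do not say more on the mice, so p-values measure the spread between these libraries. Ratios used counts with 0.5 added and an exact permutation test over the 126 splits of the mice. Alternatives were DESeq2 1.42.0, limma 3.58.1 on TPM and normalized counts, other scalings and filters, robust dispersions, a replicate block and leaving out each mouse. Exon lengths and overlaps came from GENCODE GRCm38, promoters from RefSeq GRCm38.p6. The test script was checked on simulated counts. A column (1 per table) that belonged to no sample used here was left out.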

Additional observations from a re-analysis of the deposited data

Results flagged for a closer look

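For 72 pairings of a value with an age group, the gap between the extreme mouse and its nearest neighbour was divided by the range of the group (Dixon's ratio). There were 7 gaps over the 95% critical value. Chance gives about 3.6, or 1 group in 20. Of these, 4 came from young replicate 4, which was above the other young mice in log2 CPM of B2m (6.22 against 5.61 to 5.77), in the summed CPM of the peptide loading and processing list (1137 against 936 to 993), in that of the activated microglia list (2249 against 1624 to 1765) and in that of the B and plasma cell list (22.61 against 16.9 to 17.8). Old replicate 5 was under the other old mice in log2 CPM of H2-Q6 (1.79 against 2.54 to 2.66). Old replicate 3 was apart in 2 values, with a summed CPM of the interferon response list of 267.7 against 210 to 212, and with a log2 ratio of H2-K1 to H2-D1 of -1.037 against -0.977 to -0.967, in a group whose whole spread was 0.03 (SD, n = 4).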

How the results depend on the processing

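Over 22 other settings, 7 to 9 of the 10 members were called, and 8 in each of the 9 fits that left out a mouse. H2-T23 was lost on the TPM scale, and H2-T22 was added at an adjusted p under 0.05 alone. No member changed direction under any setting. Over all genes, 495 were called (421 higher, 74 lower), 2039 at an adjusted p under 0.05 alone, 270 at an adjusted p under 0.01 with the fold threshold and 392 to 604 with a mouse left out, the last without young replicate 4. The median of all genes was -0.142 on the log2(TPM + 1) and -0.162 on the log2(TPM + 0.1) scale, and 217 genes were then called higher and 163 lower, or 299 and 264. Robust dispersions, an alternative chosen after seeing the data, gave 463 genes and 8 members.

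The replicate numbers were not taken as pairing the mice, since the correlation of deviations between mice of the same number was 0.17, -0.118, 0.0884 and -0.0243. With the replicate block, 461 genes and 8 members were called. The same mice without the block, added after seeing the data, gave 459 genes. In the 4 numbered pairs the smallest exact p of a ratio is 0.125, so no ratio could pass there. The differences of the log2 ratio to B2m with the replicate block were 0.36 for H2-K1, 0.63 for H2-Q4, 1.25 for H2-Q6, 1.32 for H2-Q7, -0.52 for H2-T22 and -0.50 for H2-M3, and H2-K1 to H2-D1 differed by 0.43. With a mouse left out, these ranged from 0.27 to 0.36 for H2-K1, from 0.55 to 0.71 for H2-Q4, from 1.08 to 1.43 for H2-Q6, from 1.14 to 1.71 for H2-Q7, from -0.69 to -0.52 for H2-T22, from -0.59 to -0.44 for H2-M3, from 0.52 to 0.81 for Nlrc5 and from 0.31 to 0.43 for H2-K1 to H2-D1. Fewer mice allow fewer splits, which raises the smallest p.

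List medians with a mouse left out ranged from -0.05 to 0.17 for the other class I genes (-0.05 without old replicate 5, where the direction reversed, and 0.17 without old replicate 1), from 0.18 to 0.26 for endothelium (0.18 without old replicate 4) and from 0.27 to 1.45 for B and plasma cells (0.27 without old replicate 4). The cause was not tested. Depth limits the low genes: H2-Q6, H2-Q7 and Nlrc5 rest on under 50 counts in each young mouse, and H2-M3 on 32 to 61 in all.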
